A study of Homo sapiens with 15 samples.

Results

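The genes described here are 36 lysosome and autophagy genes related to the transcription factors MITF and TFEB, of the 20468 genes in each of the 2 expression tables. They were chosen by gene symbol and were read from both tables. The 36 comprise 3 transcription factors (MITF, TFEB, TFE3), 6 genes of lysosomal membrane or related glycoproteins (LAMP1, LAMP2, CD63, SCARB2, MCOLN1, GPNMB), 7 cathepsins (CTSA, CTSB, CTSD, CTSH, CTSL, CTSS, CTSZ) and 10 genes of other hydrolases and luminal proteins (GAA, GLA, GLB1, HEXA, GUSB, NEU1, PSAP, GRN, TPP1, LIPA). The remaining members are 5 genes of the vacuolar proton pump, the V-ATPase (ATP6V0D1, ATP6V0E1, ATP6V1A, ATP6V1H, ATP6AP1), and 5 autophagy genes (SQSTM1, GABARAPL1, MAP1LC3B, WIPI1, ULK1).

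MITF, TFEB and TFE3 belong to one family of basic helix-loop-helix leucine zipper factors that bind E-box motifs, and many promoters of lysosomal genes carry such a motif. When nutrients are plentiful, the kinase mTORC1 phosphorylates TFEB and TFE3 and holds them in the cytoplasm, so that their mRNA level alone does not give their activity. Lysosomal hydrolases break down material that reaches the lysosome by endocytosis or autophagy, and the V-ATPase acidifies it.

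RNA of 2 established multiple myeloma cell lines was sequenced after 48 h of culture. The MONO libraries come from myeloma cells grown alone, the CO libraries from myeloma cells on a layer of the bone marrow stromal line HS5, and the TSW libraries from myeloma cells in a transwell above that coculture, reached by soluble factors only. In the study's methods, cells were sorted as CD90-negative and CD38-positive before RNA was made. MM.1S had 3 libraries per condition and RPMI8226 had 2, which makes 15 libraries, and TSW and CO are called the coculture conditions below. TSW against MONO asks what the soluble factors change, CO against MONO what the whole coculture changes, and CO against TSW what growth on the stromal layer adds. Nothing in the labels says that replicates were separate cultures, so a p value measures only the spread between these libraries, which may be technical.

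Depth was recovered as fragments (read pairs) counted on genes. The paper's supplement lists read pairs mapped to gene transcripts, slightly more than recovered here in every library but MM.1S MONO replicate 2. For that library it lists the same number as for RPMI8226 MONO replicate 2, lower than the depth recovered here. The MM.1S libraries held 9008977, 19050772 and 13265498 fragments in MONO, 14260729, 15206212 and 13126692 in TSW, and 16101366, 15342283 and 13825779 in CO. For RPMI8226 the libraries held 12479855 and 14806319 in MONO, 18538305 and 17929481 in TSW, and 16316717 and 18790792 in CO. At these depths 1 fragment on a transcript of 2 kb gives between 0.0262 and 0.0555 RPKM. RPKM is a level per transcript length and per library, and every level below is in RPKM.

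The cell type in the labels was checked against 12 plasma cell markers. In MM.1S 10 of the 12 were at 1 RPKM or more in every library, and in RPMI8226 9 of the 12. JCHAIN, which encodes the joining chain of immunoglobulins, was the most abundant marker in every library, and the markers differed between conditions. In MM.1S the mean summed level was 5398 RPKM in MONO, 4001 in TSW and 3746 in CO. There 3 of the 10 tested were called higher and 2 lower in TSW, and 2 and 2 in CO. The sum fell with JCHAIN, whose means were 3753, 2075 and 1985 RPKM. Without JCHAIN the sums were 1834, 1607 and 1496 RPKM in MONO, 1952, 1999 and 1828 in TSW, and 1726, 1897 and 1660 in CO. In RPMI8226 the sum with JCHAIN was 2444 RPKM in MONO, 4366 in TSW and 4502 in CO. In each coculture condition of RPMI8226 6 of the 9 tested were called higher and 2 lower, as most called members were higher in this line. The part of the marker levels in the members' values was not tested. The libraries are bulk RNA, so fewer cells of a type and less RNA per cell cannot be told apart.

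Some libraries stood apart before any member was considered. On the log2 scale the mean distance to the other libraries of the same condition was 43.8, 34.9 and 35.0 for the 3 MM.1S MONO libraries, against 15.6 to 17.4 in TSW and 19.5 to 21.5 in CO. RPS14P3, a ribosomal protein pseudogene, was at 84.2 RPKM in MM.1S MONO replicate 2 and at 94.8 and 93.6 in the RPMI8226 TSW libraries, while no other library exceeded 6.44. In the same 3 libraries the mitochondrial asparagine tRNA had 1.44, 2.22 and 1.53 RPKM, and at least 82.3 in all others. Both RPMI8226 TSW libraries carry this mark, so that in this line it cannot be told apart from the TSW condition. Without MM.1S MONO replicate 2, 4 members instead of 3 were called higher in TSW and 5 instead of 4 in CO. The RPMI8226 comparison of CO with MONO, fitted without the TSW libraries, gave the same 18 members higher and 1 lower.

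Genes with a mean of at least 1 RPKM in a line were tested with limma on log2(RPKM + 1), a scale that understates the change of genes at low levels. A gene was called when its Benjamini-Hochberg adjusted p over all tested genes was under 0.05 and its fold change exceeded 1.5. In MM.1S 33 of the 36 members were tested, and GAA, CTSL and CTSH were below the level. In RPMI8226 34 were tested, and CTSL and GABARAPL1 were below it. The values of these 4 genes in the lines where they were not tested are given below. Whether the libraries of 2 conditions overlap is given as a description. With 2 libraries per condition in RPMI8226, conditions were apart for small changes too, as for LAMP1 in TSW against MONO (0.10, not called).

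In MM.1S TSW against MONO, 3 of the 33 tested members were called higher and 1 lower, where 6.48% and 4.16% of the 10153 tested genes were called. The members called higher were MITF, WIPI1 and ATP6V1A, and CTSZ was called lower. Without MONO replicate 3 the counts were 5 and 2, and without MONO replicate 1 they were 2 and 0. The median log2 fold change was 0.07 over the members and 0.01 over all tested genes, and 18 of the 33 members had a value above 0.

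In MM.1S CO against MONO, 4 members were called higher and 0 lower, beside 7.13% and 4.65% of all tested genes. The 4 were MITF, LAMP2, WIPI1 and ATP6V1A, and without MONO replicate 1 only 2 remained. Across the members the median was 0.03, and across all tested genes 0.01. No member was called lower by limma or by voom on recovered counts, and 19 members in either direction had an unadjusted p under 0.05.

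In RPMI8226 TSW against MONO, 15 of the 34 tested members were called higher and 0 lower. Of the 10319 tested genes, 14.5% were called higher and 17.9% lower. The members' median was 0.52 and that of all tested genes −0.08, and 28 of the 34 members had a value above 0, or 82.4% against 44.4% of the other genes. For the count of 0 members lower, voom on recovered counts also called 0, and 27 members in either direction had an unadjusted p under 0.05 in limma.

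In RPMI8226 CO against MONO, 18 members were called higher and 1, MCOLN1, lower, beside 16.4% and 22.9% of all tested genes. The members' median was 0.61 and that of all tested genes −0.09. Values above 0 were found for 28 of the 34 members, or 82.4%, and for 44% of the other genes. Without CO replicate 1, 0 members were called lower, and MCOLN1 stood at −0.57. Scaling by median of ratios turned the balance of all genes, to 1700 higher and 1560 lower in TSW and 2021 and 1904 in CO, from 1500 and 1852 and from 1693 and 2363. Under it 18 and 22 members were called higher and 0 lower, with medians of 0.59 and 0.71 beside −0.01 and 0.01 over all tested genes. Genes of one list share regulators and are not independent replicates, so the medians describe the list and carry no test.

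**Figure D1:**
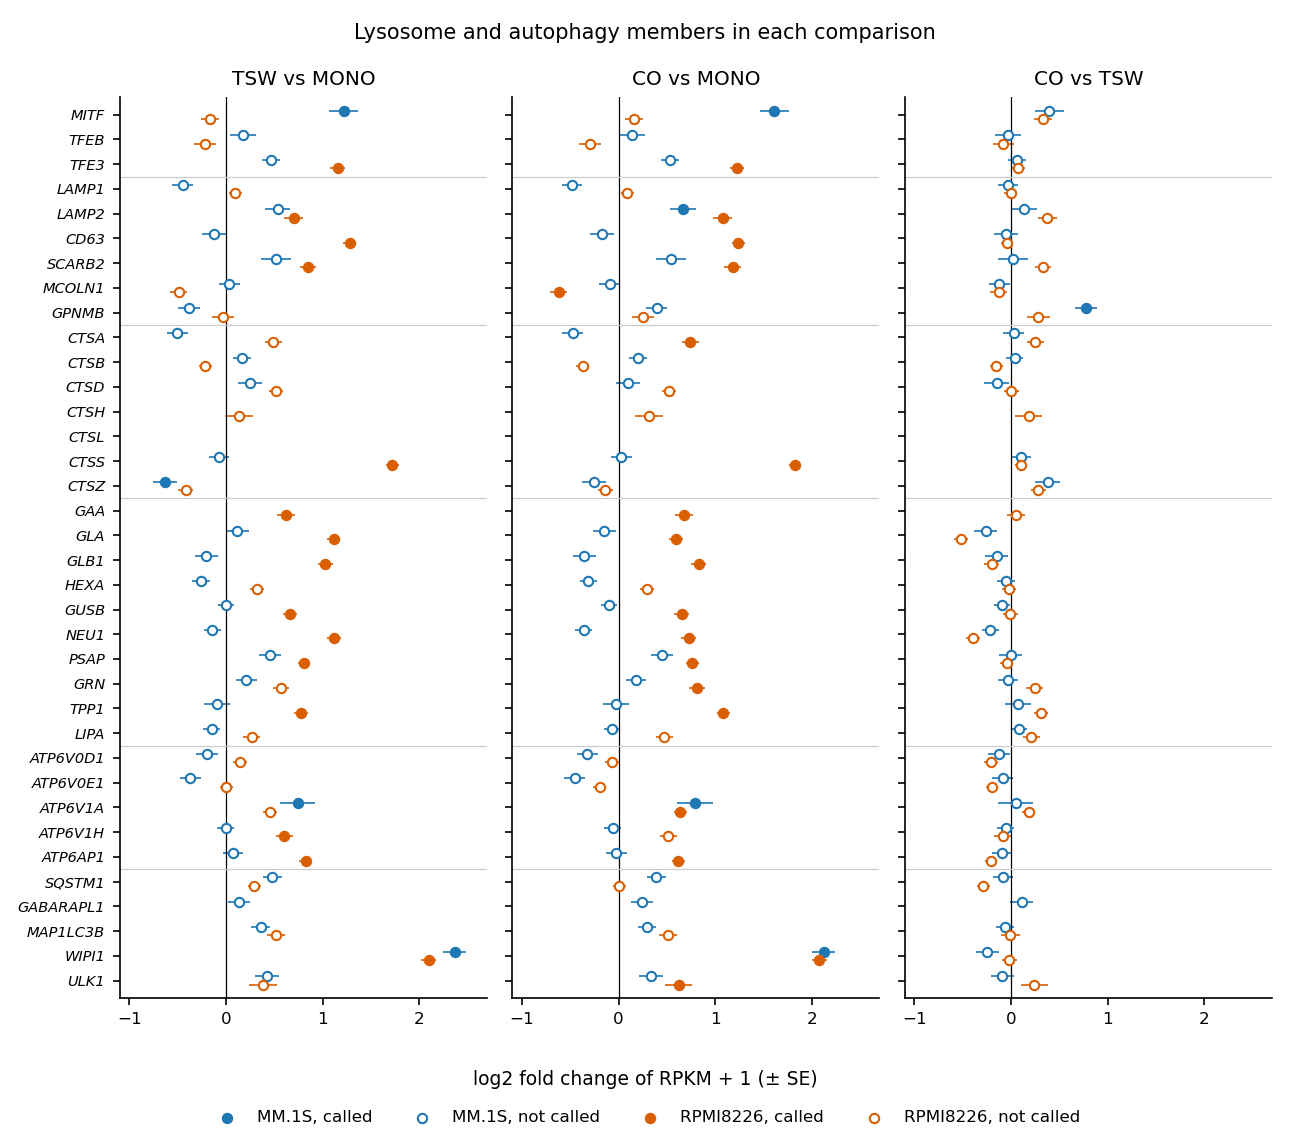
The log2 fold change of RPKM + 1 (horizontal axis, points with SE bars) of every tested member is shown by gene (vertical axis, grouped by role) for the 3 comparisons, in MM.1S (blue) and RPMI8226 (orange), with filled points for called members. In RPMI8226 15 members were called higher in TSW and 18 in CO, against 3 and 4 in MM.1S, and WIPI1 lies above 2 in both lines.

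Among the transcription factors, MITF is the factor of melanocytes, osteoclasts and mast cells. In MM.1S MITF was at 1.56, 2.46 and 2.92 RPKM in MONO, at 6.72, 5.85 and 7.23 in TSW, and at 9.31, 8.24 and 9.41 in CO. All coculture libraries lay above all MONO libraries, and the CO libraries lay above the TSW libraries. MITF rose by a log2 fold change of 1.22 ± 0.15 (SE) in TSW (adjusted p 0.0002, 3 of 3 libraries above every MONO library) and by 1.61 ± 0.15 in CO (adjusted p 2.4e-05, 3 of 3). In RPMI8226 it was at 6.7 and 6.32 RPKM in MONO, 5.59 and 5.79 in TSW, and 7.85 and 6.99 in CO. There it was not called, with −0.17 in TSW (adjusted p 0.135) and 0.16 in CO (adjusted p 0.135).

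TFE3, a ubiquitous family member that mTORC1 restrains, was at 20.9 and 23.1 RPKM in RPMI8226 MONO, at 49.1 and 51.1 in TSW, and at 53.6 and 51.7 in CO. Both cocultured conditions were higher in every library. TFE3 rose by 1.15 ± 0.08 in TSW (adjusted p 4.6e-07, 2 of 2 libraries) and by 1.22 ± 0.08 in CO (adjusted p 2.1e-07, 2 of 2). In MM.1S it was at 14.8, 15.7 and 14.6 RPKM in MONO, 21.1, 22.9 and 19.6 in TSW, and 20.9, 21.6 and 24.1 in CO. MONO lay below both coculture conditions there, but the log2 fold changes of 0.47 (adjusted p 0.0043) and 0.53 (adjusted p 0.002) were under the fold change required, and the CO value passed it (0.67) with the GC content and length correction.

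TFEB, which controls lysosome formation, was at 4.42, 3.98 and 2.81 RPKM in MM.1S MONO, 4.35, 3.87 and 4.68 in TSW, and 3.78, 4.52 and 4.24 in CO. These groups overlapped. In RPMI8226 TFEB was at 1.91 and 1.97 RPKM in MONO, 1.45 and 1.61 in TSW, and 1.58 and 1.22 in CO. It was called in no comparison, with 0.18 (adjusted p 0.356) and 0.14 (adjusted p 0.439) in MM.1S and −0.22 (adjusted p 0.107) and −0.30 (adjusted p 0.0338) in RPMI8226, for TSW and CO. TFEC, the remaining family member and not among the 36, was below 1 RPKM on average in both lines and was not tested. Its level in RPMI8226 was 0.0707 and 0.0767 RPKM in MONO, 0.986 and 0.746 in TSW, and 1.05 and 0.812 in CO. In MM.1S TFEC was at 0.126, 0.0397 and 0.00951 RPKM in MONO, 0.539, 0.730 and 0.452 in TSW, and 0.486, 0.263 and 0.338 in CO. MONO was the lowest in both lines. The 10 pigment genes listed as melanocyte targets of MITF were all below a mean of 1 RPKM in both lines, with RAB38, MLANA or PMEL the most abundant. Their summed level was 1.46 to 2.92 RPKM in MM.1S, where TSW lay above MONO and CO overlapped both. In RPMI8226 it was 1.05 and 1.01 RPKM in MONO, 2.68 and 2.71 in TSW, and 2.29 and 2.69 in CO, higher in both coculture conditions, and TYR, the tyrosinase gene, was at 0 in every library.

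**Figure D2:**
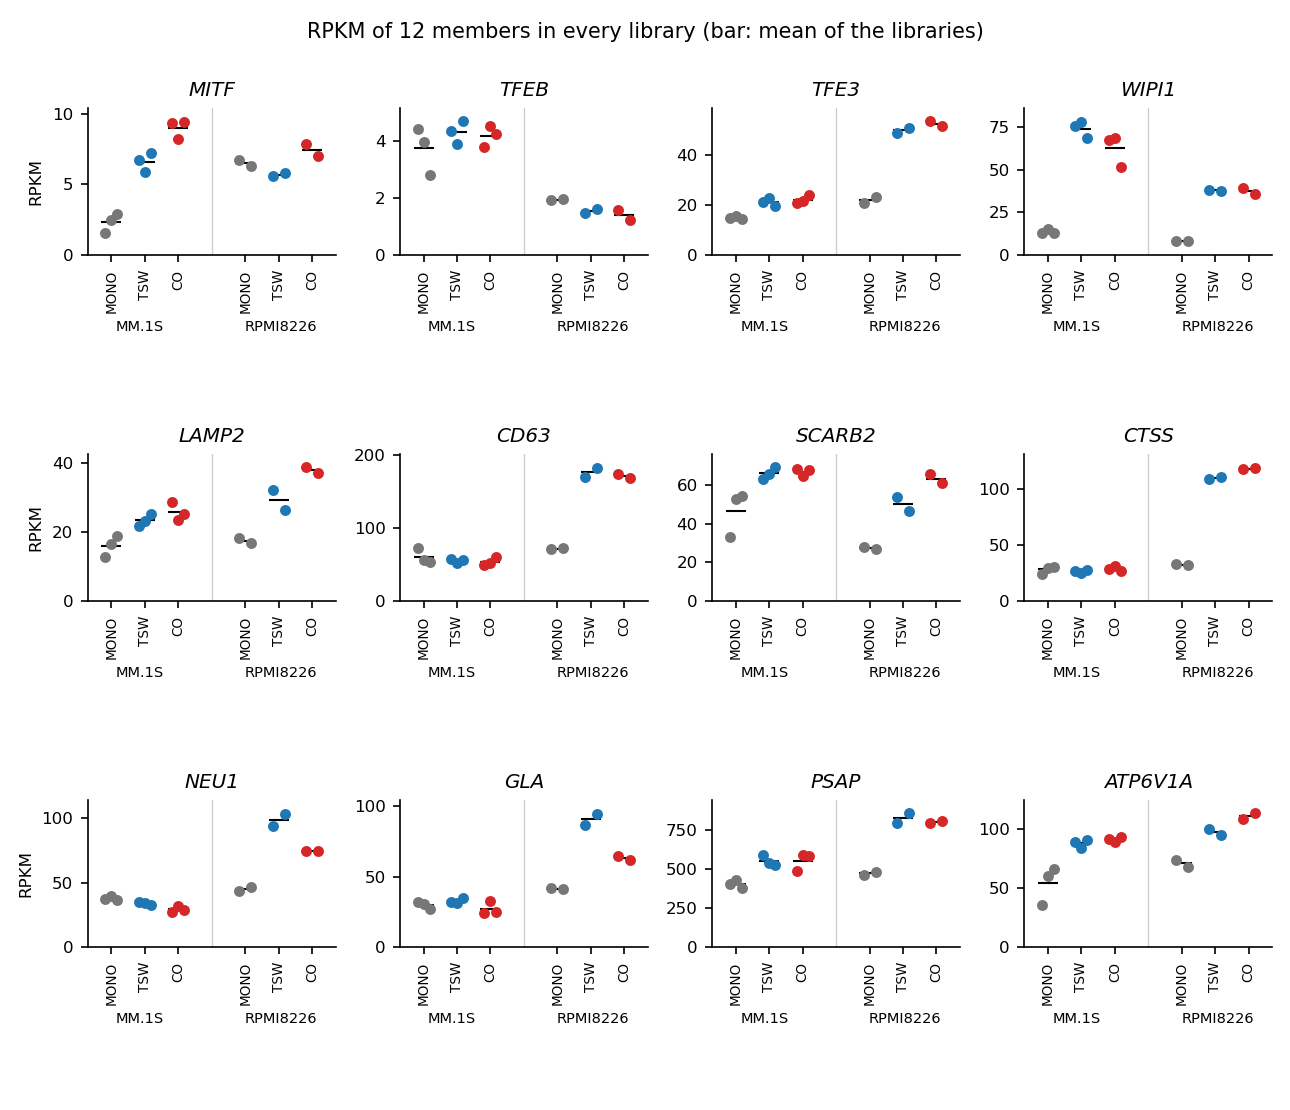
RPKM (vertical axis) of 12 members in every library (points, with a bar at the mean) is shown for MONO, TSW and CO of MM.1S and RPMI8226 (horizontal axis). MONO lies below TSW and CO for MITF in MM.1S only, and for CD63, CTSS, NEU1 and GLA in RPMI8226 only. It lies below both in both lines for TFE3, LAMP2, SCARB2, PSAP and ATP6V1A. WIPI1 rises from 15.0 RPKM or less in MONO to 35.8 or more in TSW and CO in both lines.

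Promoters of the members were searched for the palindromic E-box with a flanking T and A, TCACGTGA, in windows from 250 bases before to 50 after the annotated start of each transcript. The table of RefSeq promoters (GRCh38.p14) used here held 28 of the members (43 windows) and not ATP6V0E1, ATP6V1A, ATP6V1H, CTSB, CTSS, HEXA, LAMP2 and PSAP. The motif was in 5 member windows, those of ATP6V0D1, CTSA, GAA, LAMP1 and MCOLN1, and in 344 of all 35116 windows (0.98%). Its core CACGTG, which is part of the longer motif, was in 8 member windows and in 7.26% of all windows. The M-box, TCATGTG or its reverse complement CACATGA, was in 6 member windows and in 2.92% of all windows. A match describes a sequence and is neither a bound site nor a cause of a change.

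The 4 promoters printed here carry TCACGTGA and belong to members with values in these data, and they are shown so that the motif can be placed relative to the start. Each has 100 bases, 90 before the start and 10 from it on, on the strand of the gene, from the RefSeq annotation of GRCh38.p14. Capitals mark TCACGTGA, which reads the same on both strands. The CTSA promoter (chr20:45891245-45891344, plus strand) has it 26 bases before the start, LAMP1 (chr13:113297149-113297248, plus strand) 29 and 2 bases before, ATP6V0D1 (chr16:67481148-67481247, minus strand) 60 bases before, and MCOLN1 (chr19:7522534-7522633, plus strand) 42 and 15 bases before.

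CTSA: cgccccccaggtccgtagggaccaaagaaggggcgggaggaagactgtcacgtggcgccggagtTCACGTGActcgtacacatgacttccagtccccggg

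LAMP1: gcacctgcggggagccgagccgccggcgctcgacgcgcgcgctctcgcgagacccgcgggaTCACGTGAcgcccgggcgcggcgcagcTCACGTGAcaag

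ATP6V0D1: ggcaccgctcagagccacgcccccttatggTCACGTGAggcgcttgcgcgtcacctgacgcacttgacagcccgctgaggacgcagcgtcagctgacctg

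MCOLN1: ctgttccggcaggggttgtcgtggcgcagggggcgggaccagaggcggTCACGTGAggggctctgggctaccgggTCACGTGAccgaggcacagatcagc

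Among the 6 membrane members, LAMP2, a major glycoprotein of the lysosomal membrane, was at 12.8, 16.7 and 18.8 RPKM in MM.1S MONO, 21.9, 23.2 and 25.4 in TSW, and 28.7, 23.5 and 25.4 in CO. Every coculture library exceeded every MONO library. In CO it rose by 0.66 ± 0.13 (adjusted p 0.0043, 3 of 3 libraries), and the call was lost without MONO replicate 1 (0.52) and with the GC content and length correction added after seeing the data (0.27). The TSW value of 0.53 (adjusted p 0.0142) was under the fold change required. In RPMI8226 LAMP2 was at 18.3 and 16.8 RPKM in MONO, 32.2 and 26.3 in TSW, and 38.9 and 37.3 in CO, again with no overlap. It rose by 0.70 ± 0.10 in TSW (adjusted p 0.00011, 2 of 2 libraries) and by 1.08 ± 0.10 in CO (adjusted p 3.6e-06, 2 of 2), and without TSW replicate 1 the TSW value was 0.56 and not called.

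CD63, a tetraspanin of late endosomes and lysosomes, was at 71.4 and 72.0 RPKM in RPMI8226 MONO, 169 and 182 in TSW, and 173 and 168 in CO. Every coculture library lay above the highest MONO library. CD63 rose by 1.28 ± 0.07 in TSW (adjusted p 9.2e-08, 2 of 2 libraries) and by 1.24 ± 0.07 in CO (adjusted p 7.9e-08, 2 of 2). In MM.1S CD63 was between 48.7 and 72.6 RPKM in the 9 libraries, the groups overlapped, and it was not called.

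SCARB2, the receptor that carries glucocerebrosidase to the lysosome, was at 28.0 and 26.7 RPKM in RPMI8226 MONO, 54.0 and 46.3 in TSW, and 65.4 and 61.1 in CO. These formed 3 separate groups in this line. SCARB2 rose by 0.85 ± 0.09 in TSW (adjusted p 1e-05, 2 of 2 libraries) and by 1.18 ± 0.09 in CO (adjusted p 6.6e-07, 2 of 2). In MM.1S it was at 33.3, 52.7 and 54.3 RPKM in MONO, 63.1, 65.6 and 69.4 in TSW, and 68.3, 64.9 and 67.5 in CO. Here too MONO lay below both coculture conditions, with its replicate 1 the lowest, and the CO value of 0.54 was not called.

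MCOLN1, a calcium channel of the lysosomal membrane, was at 9.28 and 8.88 RPKM in RPMI8226 MONO, 6.04 and 6.30 in TSW, and 5.35 and 5.78 in CO. Both coculture conditions were lower than MONO in every library. In CO MCOLN1 fell by 0.62 ± 0.09 (adjusted p 0.0001, 2 of 2 libraries), and in TSW the value of −0.49 was under the fold change required. The CO call did not hold without CO replicate 1 (−0.57), with scaling by median of ratios (−0.52) or quantiles (−0.57), or with a correction for GC content and length that was added after seeing the data (−0.33). LAMP1, the other major membrane glycoprotein, was called in neither line.

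Of the 7 cathepsins, CTSS, a cysteine protease active at neutral pH, was at 33.1 and 32.0 RPKM in RPMI8226 MONO, 109 and 110.2 in TSW, and 117 and 119 in CO. Levels were far higher in both coculture conditions, in every library. CTSS rose by 1.72 ± 0.06 in TSW (adjusted p 8.8e-09, 2 of 2 libraries) and by 1.83 ± 0.06 in CO (adjusted p 5.1e-09, 2 of 2). In MM.1S it lay between 24.2 and 31.0 RPKM in the 9 libraries with overlapping groups, and it was not called.

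CTSA, the protective protein that stabilises beta-galactosidase and neuraminidase, was at 51.1 and 54.8 RPKM in RPMI8226 MONO, 68.5 and 81.5 in TSW, and 88.0 and 90.4 in CO. No 2 conditions overlapped. It rose in CO by 0.74 ± 0.09 (adjusted p 2.3e-05, 2 of 2 libraries), and the TSW value of 0.49 was not called. In MM.1S CTSA was at 74.7, 65.5 and 56.7 RPKM in MONO, 48.4, 45.2 and 43.6 in TSW, and 47.3, 50.1 and 42.9 in CO. There the coculture libraries were the lower ones, with a TSW value of −0.50 that was not called.

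CTSZ, a carboxypeptidase, was at 55.6, 40.1 and 37.8 RPKM in MM.1S MONO, 29.4, 27.4 and 27.0 in TSW, and 35.5, 37.2 and 37.2 in CO. TSW was lowest in every library. In TSW CTSZ fell by 0.63 ± 0.13 (adjusted p 0.0048, 3 of 3 libraries), but the call was lost without MONO replicate 1 (−0.46) and with the GC content and length correction (−0.56). Its RPMI8226 levels were 183 and 183 RPKM in MONO, 132 and 142 in TSW, and 176 and 158 in CO, and it was not called.

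The highest cathepsin in RPMI8226 MONO besides CTSZ was CTSB, a cysteine protease, at 161 and 163 RPKM, with 125 and 125 in CO (−0.37, not called). CTSD, the main aspartic protease, was the highest cathepsin in MM.1S, at 101 to 144 RPKM, and was called in neither line. CTSH, an aminopeptidase, was at 0.318 to 0.702 RPKM in MM.1S and was not tested there. In RPMI8226 it was at 1.73 to 3.06 RPKM and was not called.

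Other hydrolases and luminal proteins were the role with the most calls. In RPMI8226 7 of its 10 genes were called higher in TSW and 8 in CO, with 0 lower in either. The medians were 0.72 and 0.70. Of all tested genes in this line, 14.5% were called higher in TSW and 16.4% in CO, and 17.9% and 22.9% lower. For these counts of 0, voom on recovered counts also called 0 lower. In MM.1S limma called 0 of the 9 tested in either comparison, with medians of −0.10 in both, and voom called 0 as well. An unadjusted p under 0.05 was found for 2 in TSW and 4 in CO. Of all tested genes in MM.1S, 6.48% and 7.13% were called higher in TSW and CO, and 4.16% and 4.65% lower. A count of 0 among 9 genes lies near these shares.

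PSAP, the precursor of the saposins that activate sphingolipid hydrolases, was the most abundant member in every library. Its RPMI8226 levels were 463 and 479 RPKM in MONO, 792 and 858 in TSW, and 794 and 805 in CO. Both coculture conditions were higher in every library. PSAP rose by 0.81 ± 0.07 in TSW (adjusted p 2.5e-06, 2 of 2 libraries) and by 0.76 ± 0.07 in CO (adjusted p 2.7e-06, 2 of 2). In MM.1S it was at 400.1, 428 and 377 RPKM in MONO, 588, 536 and 525 in TSW, and 483, 585 and 579 in CO. MONO was the lowest in MM.1S as well, but PSAP was not called there. Summed over the 36 members, the mean level in RPMI8226 was 1995 ± 26.3 (SD) RPKM in MONO, 2989.9 ± 129 in TSW and 2973 ± 16.8 in CO. In MM.1S this sum was 1818 ± 86.3, 2049 ± 65.5 and 2003 ± 123 RPKM.

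NEU1, the lysosomal neuraminidase, was at 43.1 and 46.3 RPKM in RPMI8226 MONO, 93.5 and 103 in TSW, and 74.4 and 74.6 in CO. TSW was highest and CO lay between. NEU1 rose by 1.12 ± 0.07 in TSW (adjusted p 5e-07, 2 of 2 libraries) and by 0.72 ± 0.07 in CO (adjusted p 8.5e-06, 2 of 2). GLA, alpha-galactosidase, followed the same order, with 41.7 and 41.1 RPKM in MONO, 86.8 and 94.6 in TSW, and 64.3 and 61.6 in CO. No groups overlapped. For GLA the values were 1.11 ± 0.07 in TSW (adjusted p 3.7e-07, 2 of 2 libraries) and 0.59 ± 0.07 in CO (adjusted p 2.6e-05, 2 of 2). The CO call of GLA was lost without MONO replicate 2 (0.58) and without CO replicate 1 (0.56).

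GLB1, beta-galactosidase, was at 31.1 and 35.5 RPKM in RPMI8226 MONO, 67.0 and 70.5 in TSW, and 60.4 and 59.0 in CO. Every coculture library was above MONO. GLB1 rose by 1.03 ± 0.08 in TSW (adjusted p 1.4e-06, 2 of 2 libraries) and 0.83 ± 0.08 in CO (adjusted p 4.9e-06, 2 of 2). GUSB, beta-glucuronidase, was at 49.1 and 50.8 RPKM in MONO, 75.0 and 84.3 in TSW, and 81.5 and 76.7 in CO. Again no coculture library reached down to MONO. The GUSB values were 0.66 ± 0.08 in TSW (adjusted p 2.8e-05, 2 of 2 libraries), which was 0.58 and not called without TSW replicate 2, and 0.65 ± 0.08 in CO (adjusted p 2.4e-05, 2 of 2).

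TPP1, a tripeptidyl peptidase, was at 41.4 and 42.7 RPKM in RPMI8226 MONO, 73.0 and 72.3 in TSW, and 94.1 and 86.7 in CO. CO was highest. TPP1 rose by 0.77 ± 0.07 in TSW (adjusted p 4.3e-06, 2 of 2 libraries) and by 1.08 ± 0.07 in CO (adjusted p 2.7e-07, 2 of 2). GRN, progranulin, was at 113 and 114 RPKM in MONO, 154 and 185 in TSW, and 194 and 206 in CO. These groups were apart as well. In CO GRN rose by 0.81 ± 0.09 (adjusted p 1.2e-05, 2 of 2 libraries), and the TSW value of 0.57 was under the fold change required.

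GAA, acid alpha-glucosidase, was at 11.8 and 11.4 RPKM in RPMI8226 MONO, 16.8 and 20.2 in TSW, and 19.1 and 19.2 in CO. All coculture libraries were higher. GAA rose by 0.62 ± 0.09 in TSW (adjusted p 0.00018, 2 of 2 libraries), 0.50 and not called without TSW replicate 2, and by 0.67 ± 0.09 in CO (adjusted p 8.7e-05, 2 of 2). In MM.1S it was at 0.199 to 0.405 RPKM and was not tested. HEXA, the alpha chain of hexosaminidase, and LIPA, the acid lipase, were called in neither line.

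Of the 5 V-ATPase genes, ATP6V1A, the catalytic subunit, was at 35.6, 60.3 and 65.8 RPKM in MM.1S MONO, 88.7, 83.9 and 90.8 in TSW, and 90.8, 88.8 and 92.8 in CO. All MONO libraries were lower, replicate 1 by the most. ATP6V1A rose by 0.74 ± 0.18 in TSW (adjusted p 0.013, 3 of 3 libraries) and by 0.79 ± 0.18 in CO (adjusted p 0.0086, 3 of 3), and without MONO replicate 1 the values were 0.47 and 0.52 and were not called. In RPMI8226 it was at 73.6 and 68.0 RPKM in MONO, 100.1 and 94.9 in TSW, and 109 and 113 in CO. No groups overlapped in RPMI8226. In CO it rose by 0.64 ± 0.07 (adjusted p 1.5e-05, 2 of 2 libraries), 0.58 and not called without MONO replicate 2, and the TSW value was 0.46.

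ATP6AP1, an accessory subunit, was at 52.4 and 53.3 RPKM in RPMI8226 MONO, 91.1 and 97.9 in TSW, and 81.6 and 81.7 in CO. Coculture libraries were the higher ones. ATP6AP1 rose by 0.82 ± 0.07 in TSW (adjusted p 2.2e-06, 2 of 2 libraries) and by 0.62 ± 0.07 in CO (adjusted p 1.3e-05, 2 of 2). ATP6V1H, a regulatory subunit, was at 7.77 and 7.81 RPKM in MONO, 13.1 and 11.6 in TSW, and 11.4 and 11.7 in CO. MONO was lower than both. Its TSW value of 0.60 ± 0.09 was called (adjusted p 0.00015, 2 of 2 libraries), 0.52 and not called without TSW replicate 1, and the CO value of 0.51 was not. ATP6V0D1 and ATP6V0E1, subunits of the membrane sector, were called in neither line.

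Of the 5 autophagy genes, WIPI1, which binds phosphoinositides at the forming autophagosome, had the largest change in log2(RPKM + 1) from MONO among the tested members of both lines. In MM.1S it was at 12.7, 15.0 and 13.0 RPKM in MONO, 75.6, 77.9 and 68.5 in TSW, and 67.7, 68.6 and 51.9 in CO. MONO was far below both. WIPI1 rose by 2.37 ± 0.12 in TSW (adjusted p 3.2e-07, 3 of 3 libraries) and by 2.12 ± 0.12 in CO (adjusted p 4.9e-07, 3 of 3). In RPMI8226 it was at 8.0 and 8.21 RPKM in MONO, 38.3 and 37.6 in TSW, and 39.1 and 35.8 in CO. MONO was again far below both. The RPMI8226 values were 2.10 ± 0.08 in TSW (adjusted p 8.1e-09, 2 of 2 libraries) and 2.08 ± 0.08 in CO (adjusted p 7.2e-09, 2 of 2). Called higher in both lines were, in TSW, WIPI1 (1 of the 3 in MM.1S and of the 15 in RPMI8226) and, in CO, WIPI1, ATP6V1A and LAMP2 (3 of the 4 and of the 18). Without MM.1S MONO replicate 1, ATP6V1A (0.52) and LAMP2 (0.52) were not called in MM.1S CO. Without RPMI8226 MONO replicate 2, ATP6V1A stood at 0.58 in RPMI8226 CO, under the fold change required. Of all genes called higher in TSW, 327 were shared, 49.7% of the 658 in MM.1S and 21.8% of the 1500 in RPMI8226. In CO these were 390, or 53.9% of 724 and 23% of 1693.

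ULK1, the kinase that starts autophagy, was at 2.38 and 2.53 RPKM in RPMI8226 MONO, 2.81 and 4.30 in TSW, and 4.18 and 4.44 in CO. TSW replicates differed from each other, and CO was above MONO. In CO ULK1 rose by 0.62 ± 0.14 (adjusted p 0.0025, 2 of 2 libraries). In MM.1S it was at 1.53 to 3.06 RPKM and was not called. GABARAPL1, which conjugates to autophagosome membranes, was at 0.306 and 0.280 RPKM in RPMI8226 MONO, 0.893 and 0.675 in TSW, and 0.859 and 0.644 in CO. It was not tested there, although MONO was the lowest, and in MM.1S, at 4.22 to 6.49 RPKM, it was not called. MAP1LC3B, the LC3 protein of autophagosomes, and SQSTM1, the cargo receptor p62, were called in neither line. MAP1LC3B stood at 0.36 and 0.29 in MM.1S TSW and CO (adjusted p 0.018 and 0.037), and at 0.52 and 0.51 in RPMI8226 (adjusted p 0.00078 and 0.00072). SQSTM1 stood at 0.48 and 0.39 in MM.1S (adjusted p 0.0059 and 0.015), and at 0.29 and 0.01 in RPMI8226 (adjusted p 0.0031 and 0.945). All of these were under the fold change required.

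Called in no comparison within a line were 13 members: ATP6V0D1, ATP6V0E1, CTSB, CTSD, CTSH, CTSL, GABARAPL1, HEXA, LAMP1, LIPA, MAP1LC3B, SQSTM1 and TFEB. HEXA was called for the difference between the lines in CO against MONO (−0.61). CTSL was tested in neither line, and without the expression filter it was called higher in CO against MONO in both. Where tested, the log2 fold changes of the 13 members ran in MM.1S from −0.48 (LAMP1, CO against MONO) to 0.48 (SQSTM1, TSW against MONO). In RPMI8226 they ran from −0.37 (CTSB, CO against MONO) to 0.52 (CTSD, CO against MONO). Some of these values, such as those of LAMP1 in MM.1S and CTSD in RPMI8226, had an adjusted p under 0.05 and missed only the fold change. Standard errors over all tested members were 0.08 to 0.18 in MM.1S and 0.06 to 0.14 in RPMI8226.

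CO against TSW changed few members. In MM.1S 1 member, GPNMB, was called higher and 0 lower, beside 0.374% and 0.0394% of all tested genes, and the medians of members and of all tested genes were −0.03 and −0.00. Unadjusted p values under 0.05 were found for 4 members, and voom gave the same counts. The RPMI8226 medians were −0.01 over the members and −0.04 over all tested genes. In this line limma called 0 members higher and 0 lower, beside 1.9% and 2.39% of all tested genes, voom also called 0, and 18 members had an unadjusted p under 0.05. The balance of all genes there, 196 higher and 247 lower, was 241 and 176 with median-of-ratios scaling, 261 and 176 with quantile normalization, and 169 and 87 with the GC content and length correction. Without the fold change requirement 5 RPMI8226 members were higher and 5 lower. The largest of these values were those of GLA (−0.52, adjusted p 0.00087) and NEU1 (−0.40, adjusted p 0.0042).

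GPNMB, a glycoprotein of melanosomes and lysosomes, was at 4.10, 3.78 and 3.97 RPKM in MM.1S MONO, 2.99, 2.38 and 3.06 in TSW, and 4.99, 6.36 and 5.24 in CO. CO was highest and TSW lowest, without overlap. From TSW to CO it rose by 0.78 ± 0.11 (adjusted p 0.0088, 3 of 3 libraries), and without TSW replicate 2 or without CO replicate 2 the value was 0.69 and was not called. RPMI8226 levels of GPNMB were 5.60 to 8.42 RPKM, and it was not called.

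CTSL, a cysteine protease below the tested level in both lines, was at 0.620, 0.424 and 0.187 RPKM in MM.1S MONO, 0.240, 0.592 and 0.615 in TSW, and 1.31, 1.6 and 1.42 in CO. All CO libraries were higher than the others. In RPMI8226 it was at 0 and 0.0210 RPKM in MONO, 0.0838 and 0.191 in TSW, and 0.666 and 0.711 in CO, in the same order. Fitted without the expression filter, CTSL had a CO against MONO value of 0.80 ± 0.13 in MM.1S (adjusted p 0.0041, 3 of 3 libraries) and of 0.74 ± 0.05 in RPMI8226 (adjusted p 0.00021, 2 of 2). For CO against TSW the value was 0.73 ± 0.13 in MM.1S (adjusted p 0.029) and was called. In RPMI8226 it was 0.57 ± 0.05 (adjusted p 0.0076), under the fold change required.

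From TSW to CO a list of 40 stromal markers was higher along with GPNMB in MM.1S and CTSL in both lines. In MM.1S the summed level of the list was 33.6, 39.2 and 38.7 RPKM in MONO, 25, 25.2 and 25.8 in TSW, and 195, 212 and 179 in CO. In CO 37 to 39 of the 40 were above 0, with MMP1, an interstitial collagenase, the most abundant at 44.5, 46.9 and 41.0 RPKM. COL1A2, COL3A1, LUM, MMP1, MMP2 and MMP3 were at 0 in every MM.1S MONO and TSW library. In RPMI8226 the sum was 4049.7 and 4374 RPKM in MONO, 1709 and 1995 in TSW, and 2136 and 2344 in CO, lower in CO than in MONO. Most of it was FN1, fibronectin, and without FN1 the sums were 60 and 64.6 RPKM in MONO, 30.6 and 32.8 in TSW, and 128 and 175 in CO. Above 0 were 18 and 17 of the 40 markers in MONO, 22 and 21 in TSW, and 37 and 37 in CO. The summed level was higher in every CO library than in every TSW library in both lines. From MONO to CO, 17 of the 21 markers tested in MM.1S were called higher and 1 lower. In RPMI8226 11 of the 14 tested were called higher and 2 lower. The paper notes a minimal level of HS5 cells among those sorted from the lower chamber. The part of stromal transcripts in the CO values of GPNMB, CTSL and the other members was not tested.

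**Figure D3:**
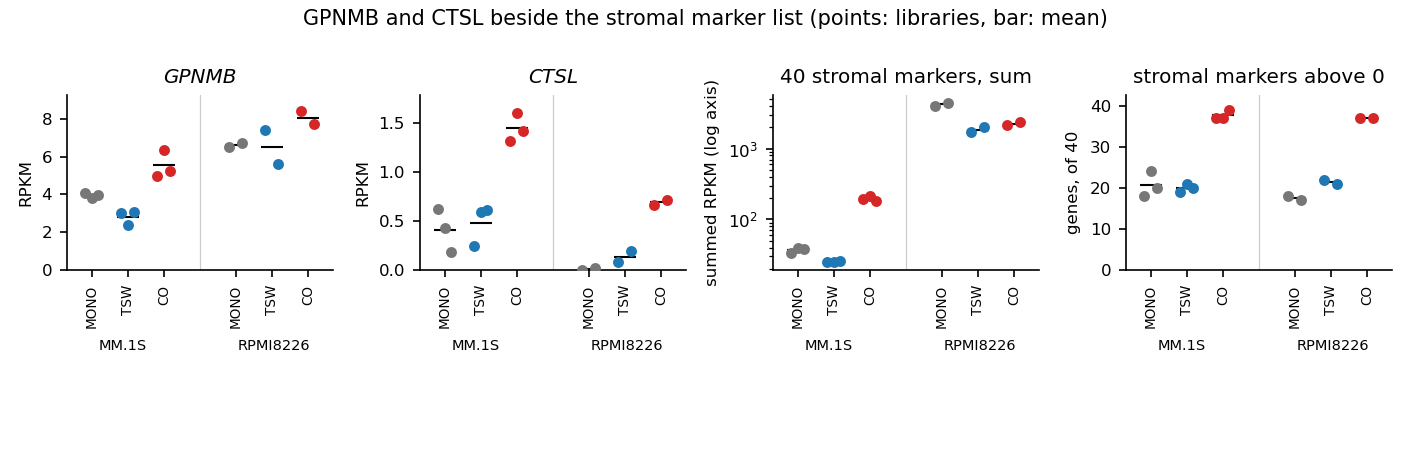
From left to right the vertical axes give RPKM of GPNMB, RPKM of CTSL, the summed RPKM of 40 stromal markers (log axis) and the number of these markers above 0, for every library (points, with a bar at the mean) by condition and line (horizontal axis). In MM.1S CO the sum is 179 to 212 RPKM against 25 to 39.2 in MONO and TSW of this line, and CTSL is at 1.31 or more against 0.620 or less.

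The difference between the lines in each comparison was tested in one fit of both, for 9397 genes and 32 members, as the MM.1S log2 fold change minus that of RPMI8226. For TSW against MONO 1 member was higher in MM.1S and 11 were lower, beside 16% and 10.9% of all tested genes. The median difference was −0.36 over the members and 0.12 over all tested genes. For CO against MONO 1 was higher and 13 lower, beside 20.6% and 11.3%, with medians of −0.48 and 0.14. Scaling by median of ratios shifted the median of all genes in this last comparison by −0.12, to 0.02, and that of the members by about as much, to −0.61. It also turned or evened the balance of all genes, from 1499 higher and 1022 lower in MM.1S to 1162 and 1213 in TSW, and from 1932 and 1063 to 1426 and 1385 in CO. For CO against TSW limma called 0 members in either direction, beside 0.0958% and 0.0426% of all tested genes, and 1 member had an unadjusted p under 0.05.

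MITF was the member higher in MM.1S, by 1.38 in TSW (adjusted p 0.00016) and by 1.45 in CO (adjusted p 7.2e-05). CTSS differed most in the other direction, by −1.80 in both TSW (adjusted p 5.5e-07) and CO (adjusted p 4.5e-07), followed by CD63 with −1.41 in both. GLB1 differed by −1.23 and −1.18, NEU1 by −1.26 and −1.09, CTSA by −0.99 and −1.22, and GLA by −1.0 and −0.74, for TSW and CO. The remaining differences called in both were those of TPP1 (−0.87 and −1.11), TFE3 (−0.69 and −0.69), GUSB (−0.66 and −0.75) and ATP6AP1 (−0.76 and −0.64). Of these, GUSB in TSW was −0.58 and not called without RPMI8226 TSW replicate 2, and ATP6AP1 in CO was −0.55 and not called without MM.1S MONO replicate 1. ATP6V1H was called in TSW (−0.60) and fell just short of the fold change in CO (−0.57, adjusted p 0.0022), and without MM.1S MONO replicate 2 (−0.58) or RPMI8226 TSW replicate 1 (−0.52) the TSW call was lost. SCARB2 (−0.64), GRN (−0.63) and HEXA (−0.61) were called in CO, and their TSW values of −0.33, −0.36 and −0.58 were not called. For none of these 4 genes did the test of CO against TSW show a difference between the lines (0.03 for ATP6V1H, −0.31, −0.27 and −0.03 for the others, lowest adjusted p 0.614). All 3 CO calls depended on single libraries. Without MM.1S CO replicate 1 the values were −0.58 for GRN and −0.54 for HEXA, without MM.1S MONO replicate 3 the value was −0.52 for SCARB2, and none was called. GRN (−0.56) and HEXA (−0.57) were also not called without MM.1S MONO replicate 1, nor HEXA (−0.57) without RPMI8226 CO replicate 2. SCARB2 was also not called without MM.1S MONO replicate 2 (−0.54) or CO replicate 2 (−0.62), or without RPMI8226 MONO replicate 1 (−0.67) or 2 (−0.61) or CO replicate 1 (−0.59) or 2 (−0.69). For WIPI1 a difference between the lines was not called, with 0.27 ± 0.16 (SE) in TSW (adjusted p 0.209) and 0.05 in CO (adjusted p 0.842). Over the 32 members the log2 fold changes of the lines had Pearson r = 0.39 (Spearman rho 0.25) in TSW and r = 0.37 (rho 0.25) in CO, a description across genes that are not independent replicates, and 24 of 32 were higher in RPMI8226 in each.

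**Figure D4:**
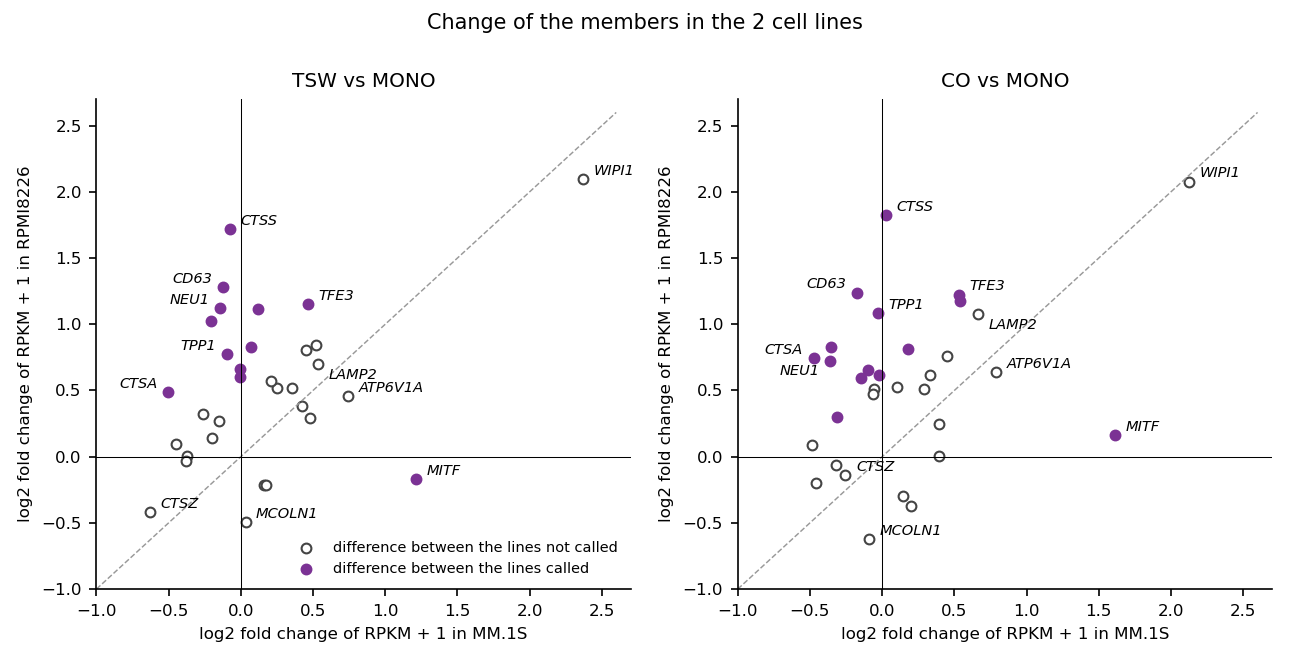
Each point is one member, with its log2 fold change of RPKM + 1 in MM.1S on the horizontal axis and in RPMI8226 on the vertical axis, for TSW against MONO (left) and CO against MONO (right), and the dashed line marks equal change. Filled points are the 12 and 14 members whose change differed between the lines, and of these only MITF lies on the MM.1S side.

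Beyond the 36 members, 171 further genes of the same roles were read. In RPMI8226 43 of the 152 tested were called higher and 4 lower in TSW, and 45 and 10 in CO, with medians of 0.21 and 0.27, where 14.5% and 17.9% of all tested genes were called in TSW and 16.4% and 22.9% in CO. In MM.1S 13 of the 151 tested were called higher and 3 lower in TSW, and 11 and 5 in CO, with medians of 0.05 and 0.05, where 6.48% and 4.16% of all tested genes were called in TSW and 7.13% and 4.65% in CO. As among the members, the list of further hydrolases had the highest share in RPMI8226, with 18 of 30 called higher in TSW and 16 in CO. This list also holds genes of other kinds, such as NPC2 and HGSNAT. The largest increases in this group were those of SIAE, a sialic acid esterase (1.83 in TSW and 1.96 in CO), and NPC2, a carrier of cholesterol (1.80 and 1.75). In MM.1S 3 of the 30 tested genes of this list were called higher in TSW and 2 in CO, while HGSNAT, an acetyltransferase of heparan sulfate breakdown, was lower (−0.83 and −0.74). DNASE2, an acid nuclease, rose in MM.1S TSW (0.76) and SGSH, a sulfatase of heparan sulfate, in CO (0.63), and HYAL2, a hyaluronidase, fell in RPMI8226 CO (−0.77). In MM.1S MONO, TSW and CO the means were 40.1, 68.5 and 59.4 RPKM for DNASE2 and 5.40, 9.48 and 8.92 for SGSH. SGSH was thus higher in TSW than in MONO as well, but its TSW value was outside the 2 largest increases named.

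Among further autophagy genes, TP53INP1, which binds LC3 proteins, rose most in both lines, by 2.08 in TSW and 2.01 in CO in MM.1S, and by 2.79 and 3.42 in RPMI8226. DRAM1, a lysosomal membrane protein, rose in MM.1S (0.74 and 0.86), and OPTN, a cargo receptor, in RPMI8226 (1.35 and 1.47). TEX264, a receptor of reticulum autophagy, fell in MM.1S CO by 0.60, and in RPMI8226 by 0.73 in TSW and by 0.98 in CO, and ATG16L1, which directs LC3 conjugation, fell in RPMI8226 CO by 0.65. In the list of regulators, SESN2, which restrains mTORC1 when leucine is scarce, rose in MM.1S (1.57 in TSW and 1.23 in CO) and in RPMI8226 (2.23 and 2.11). FNIP2, a partner of folliculin, rose in MM.1S (1.34 and 1.2), and DEPTOR, an inhibitor of mTOR, in RPMI8226 (1.40 and 1.44). NPRL2, of the complex that senses amino acids, fell in RPMI8226 (−0.59 and −0.95), as did MLST8, an mTOR subunit, in CO (−0.93).

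For membrane and sorting proteins, LAMP3 (2.08 and 2.11) and CD68 (1.47 and 1.70), glycoproteins of the LAMP family, rose in RPMI8226, and GNPTAB, which makes the mannose 6-phosphate tag, fell (−0.94 and −0.90). NPC1, the cholesterol transporter, rose in MM.1S (0.74 and 0.64), and the sorting receptor SORT1 fell (−0.78 and −0.89). NAGPA, which uncovers the mannose 6-phosphate tag, fell in CO in MM.1S (−0.59) and in RPMI8226 (−0.75). Of the V-ATPase, the subunit ATP6V0A1 rose in MM.1S (0.77 and 0.70), and ATP6V1C2 fell (−0.78 and −0.61). In RPMI8226 the subunit ATP6V1D rose (0.74 and 0.79) and ATP6V0E2 fell (−0.82 and −0.68). ATP6V0A1 rose there by 0.79 in TSW, and its means were 29.0, 50.9 and 49.8 RPKM in MONO, TSW and CO. Its CO value was outside the 2 largest increases named per list and is not given. The accessory subunit ATP6AP2 rose in RPMI8226 CO (0.76). From TSW to CO, 3 of the further genes were called in RPMI8226, namely TP53INP1 (0.63), the protease ATG4C (0.69) and BLOC1S1, a subunit of an organelle formation complex (−0.73).

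**Figure D5:**
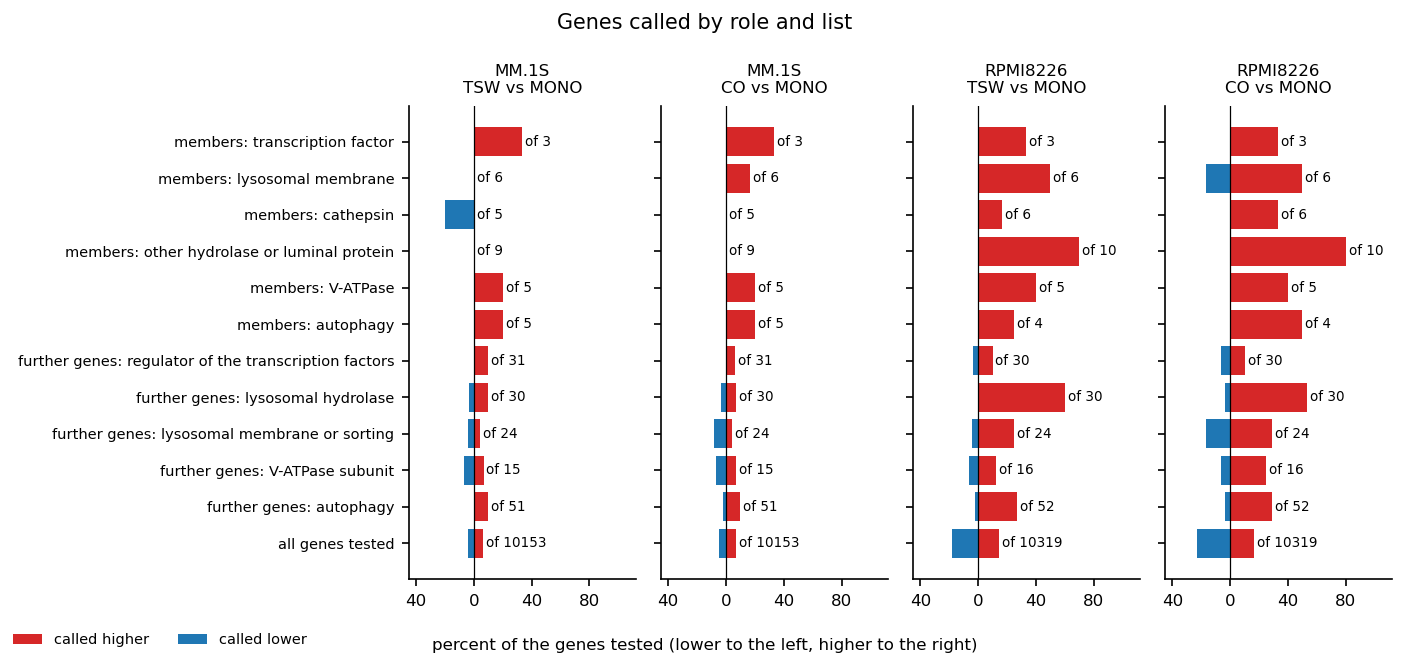
Bars give the percent of tested genes called higher (red, to the right) and lower (blue, to the left) on the horizontal axis, by role of the members and by list of further genes on the vertical axis, with the number tested and all tested genes in the last bar. In RPMI8226 7 and 8 of the 10 other hydrolases and luminal proteins among the members were called higher in TSW and CO. In the list of further hydrolases these were 18 and 16 of 30, against 14.5% and 16.4% of all tested genes.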

How the data were processed

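The deposited values are log2(RPKM + 1) with 0.0001 added, made by the authors from reads aligned to hg38 and counted on RefSeq genes, and the offset was subtracted. Members were matched by symbol in both tables, and every value column belonged to a labelled library. Steps between the values within a library gave back the counted fragments. The log2(RPKM + 1) values of a line, for genes averaging 1 RPKM or more, were fitted in limma 3.58.1 (R 4.3.3) with its 3 conditions together and a trend of the variance, and p values were adjusted over all of these genes. The difference between lines came from 1 fit of both. A call needed an adjusted p under 0.05 and a fold change above 1.5.

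Each library was left out in turn. Other alternatives were quantile normalization, scaling by median of ratios, voom on recovered counts, log2(RPKM + 0.1), a block for the replicate number, a filter at a mean of 5 RPKM or none, a fit of only the 2 conditions compared, and calls without the fold change. A correction for GC content and length was added after seeing the data. Replicate numbers do not name shared cultures, so conditions were not paired.

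Members and lists were chosen with earlier results of these data known. Named genes are MITF, TFEB, TFE3 and each called member, and, of the further genes, TFEC and per list and comparison up to 2 called genes with the largest increases and 2 with the largest decreases. Members called in no comparison within a line are named with their range, and members below the filter in a line with their levels. Stromal, plasma cell and melanocyte lists are given as counts and levels. Promoters came from RefSeq (GRCh38.p14), up to 4 with TCACGTGA, by the largest change in TSW of MM.1S, and none on chromosome 8. Python 3.11.15 with numpy 2.4.6, pandas 2.3.3 and matplotlib 3.10.9 read the tables and drew the plots. ATAC libraries were not used here.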

Additional observations from a re-analysis of the deposited data

Results flagged for a closer look

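In the fit of both lines, 26 differences of members between MM.1S and RPMI8226 passed the adjusted p and the fold change, and each value is the MM.1S log2 fold change minus that of RPMI8226. For TSW against MONO the values were 1.38 for MITF, −0.60 for ATP6V1H, −0.69 for TFE3, −0.99 for CTSA, −1.26 for NEU1, −0.66 for GUSB, −1.23 for GLB1, −1.0 for GLA, −1.80 for CTSS, −0.87 for TPP1, −1.41 for CD63 and −0.76 for ATP6AP1. For CO against MONO they were 1.45 for MITF, −0.69 for TFE3, −1.22 for CTSA, −1.09 for NEU1, −0.61 for HEXA, −0.75 for GUSB, −0.63 for GRN, −1.18 for GLB1, −0.74 for GLA, −1.80 for CTSS, −1.11 for TPP1, −1.41 for CD63, −0.64 for SCARB2 and −0.64 for ATP6AP1. The comparisons share the MONO libraries. Calls lost when 1 library was left out were those of ATP6V1H (−0.58 without MM.1S MONO replicate 2, −0.52 without RPMI8226 TSW replicate 1) and GUSB in TSW (−0.58 without RPMI8226 TSW replicate 2). In CO they were those of ATP6AP1 (−0.55), GRN (−0.56) and HEXA (−0.57) without MM.1S MONO replicate 1. GRN (−0.58) and HEXA (−0.54) were also lost without MM.1S CO replicate 1, and HEXA (−0.57) without RPMI8226 CO replicate 2. SCARB2 in CO was lost without any one of 7 libraries, with −0.54 without MM.1S MONO replicate 2 and −0.52 without MM.1S MONO replicate 3. The other 5 were MM.1S CO replicate 2 (−0.62) and RPMI8226 MONO replicate 1 (−0.67), MONO replicate 2 (−0.61), CO replicate 1 (−0.59) and CO replicate 2 (−0.69). The summed stromal marker level was higher in CO than in MONO in MM.1S and lower in RPMI8226, where it was higher only without FN1, and its part in these differences was not tested.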

How the results depend on the processing

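Counts of members called are given as higher and lower. Without the fold change threshold they were 10 and 5 in MM.1S TSW against MONO, 10 and 7 in CO against MONO, 24 and 3 in RPMI8226 TSW against MONO, 23 and 4 in CO against MONO, and 5 and 5 in RPMI8226 CO against TSW, since the threshold removes small changes. Of all tested genes these settings called 1459 and 1310, 1647 and 1528, 2996 and 3925, 3123 and 4299, and 1045 and 1804. In RPMI8226 CO against MONO, 0 were lower with median-of-ratios scaling, quantile normalization or the GC content and length correction, which was added after seeing the data, and that correction also gave 0 lower in MM.1S TSW against MONO. Quantile normalization gave 6 higher in MM.1S CO against MONO. For MM.1S CO against TSW, no expression filter gave 2 higher, with CTSL added, and a mean RPKM of at least 5 gave 0. With single libraries left out, MM.1S TSW against MONO ranged from 2 to 5 higher and from 0 to 2 lower, CO against MONO from 2 to 5 higher, and CO against TSW from 0 to 1 higher. RPMI8226 TSW against MONO ranged from 14 to 17 higher and CO against MONO from 16 to 18 higher and from 0 to 1 lower. In RPMI8226 leaving out a library leaves 1 in its condition, assumed to vary like the others. Replicate number as a block gave 3 and 1, 4 and 0, and 1 and 0 in MM.1S, and 15 and 0, 18 and 1, and 0 and 0 in RPMI8226, as without it. No called member changed sign under the alternatives run, but values that were not called crossed 0, as for TFEB in MM.1S CO against MONO (−0.01 to 0.25 with single libraries left out). The cause of these changes was not tested, and at 2 or 3 libraries per condition standard errors of members reached 0.18 within a line and 0.25 for differences between the lines.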
